A study of Mus musculus with 6 samples.

Results

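The 42 genes described here encode the machinery that copies DNA and the regulators that start S phase. They were taken from the deposited table by gene symbol, from a list of licensing, replication fork, nucleotide supply and G1/S genes. All 42 were found among the 22851 genes of the table, and all 42 passed the filter on low counts. RNA had been sequenced from cultured mouse radial glial cells, the neural progenitors of the newborn brain, after they were induced to become multiciliated ependymal cells, which line the brain ventricles. Cells came from brains of C57BL/6J mice aged 0 to 3 days after birth, were kept in DMEM with 10% FBS, and were then held in DMEM without FBS for 6 days. The groups were 3 WT libraries and 3 libraries from mice with an Edf1 knockout made with CRISPR/CAS9. Edf1 encodes a transcriptional coactivator that also binds collided ribosomes. The labels call the libraries biological replicates and do not say whether mice were pooled, whether the genotypes were littermates, or which part of Edf1 was removed, so p-values measure the spread between these libraries.

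Replication origins are licensed in G1, when the origin recognition complex with Cdc6 and Cdt1 loads the MCM helicase onto DNA. In S phase, kinases and the Cdc45 and GINS proteins switch the helicase on, and polymerases held by the PCNA clamp copy both strands with deoxynucleotides made by ribonucleotide reductase and thymidylate synthase. E2F transcription factors and cyclin E drive the genes of this programme. Radial glial cells divide, whereas ependymal cells have left the cell cycle. Multiciliated cells are nevertheless known to use E2F factors and other parts of the cell cycle machinery while they make centrioles.

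Levels are given as CPM, the read counts of a gene scaled to the size of its library after TMM normalization. Differences are log2 fold changes, knockout minus WT, and are called log2 differences here. A gene was called higher or lower in the knockout when its adjusted p-value in edgeR's quasi-likelihood test was under 0.05, with Benjamini-Hochberg adjustment over 14243 tested genes. Total counts were 13071766 to 28087006 per library, and WT replicate 2 had the lowest. Edf1 had 80.2 to 85.9 CPM in WT libraries against 9.84 to 13.2 CPM in knockout libraries, so the targeted gene matched the labels in all 6 libraries.

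Replication genes did not move as a block. Of the 42 genes, 14 were higher in the knockout, 5 were lower and 23 were not called, so 19 of 42 were called where 26.9% of all tested genes were. The 14 called higher are 33.3% of the list, where 12.7% of all tested genes were called higher. The 5 called lower are 11.9% of the list, where 14.2% of all tested genes were called lower. The median log2 difference of the 42 genes was 0.11, beside 0.0029 over all tested genes. The rises were largest for Prim1, Mcm10, Cdc6, Cdc7 and Tk1, and the falls were those of Cdt1, Chaf1a, Rfc2, Dbf4 and Lig1. The count of lower genes was 8 without WT replicate 3, and the count of higher genes ran from 10 to 15 over the 6 fits that each left out a library. Of all tested genes, 13.3% were lower without WT replicate 3, and 8.36% to 14.4% were higher over these 6 fits.

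**Figure D1:**
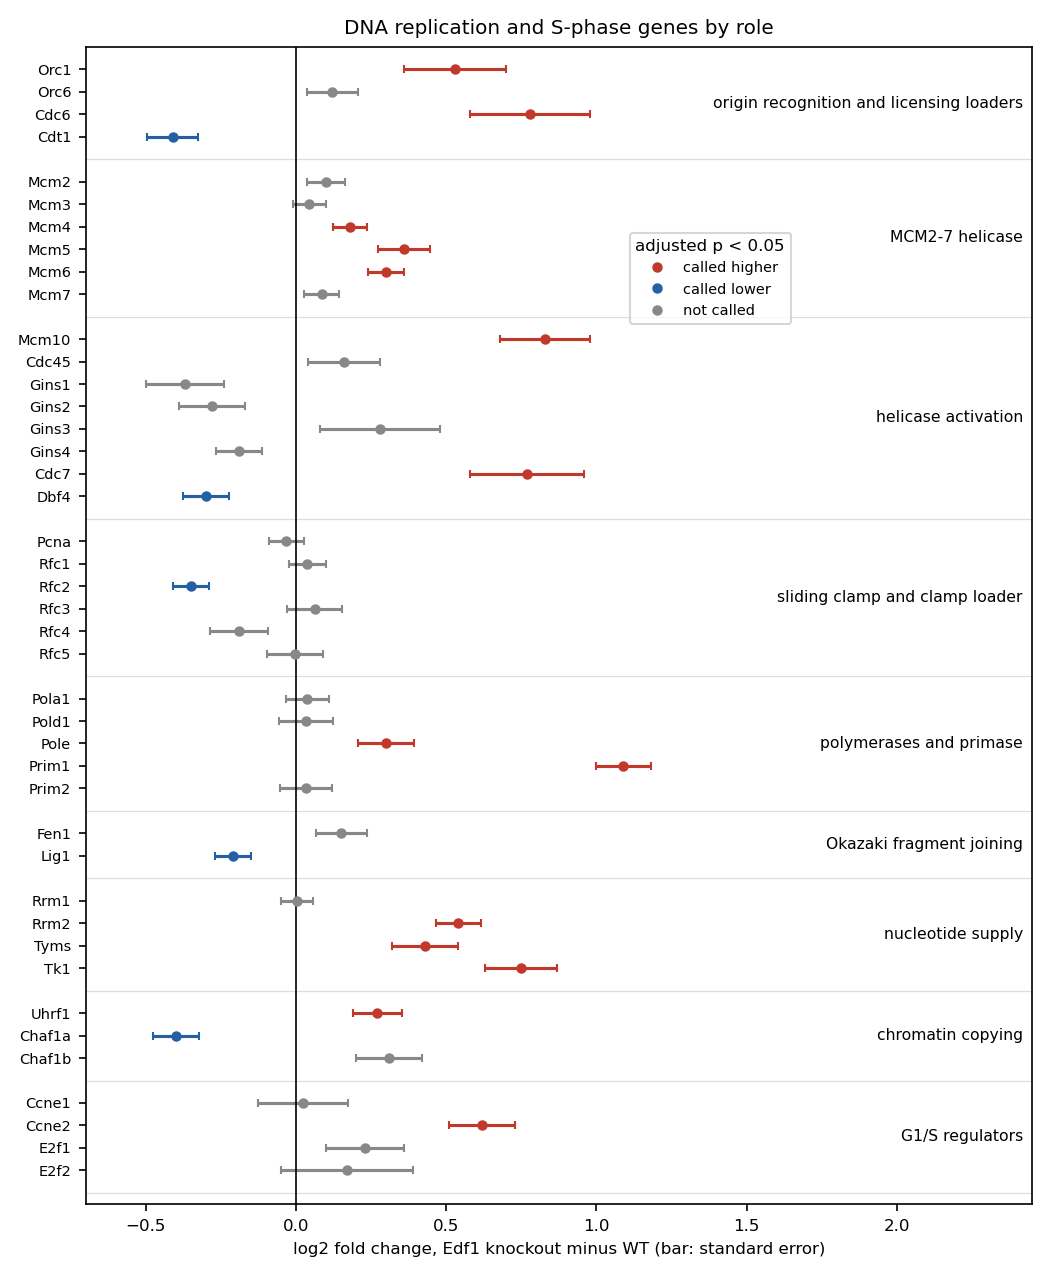
Log2 fold change (knockout minus WT) of each of the 42 genes, grouped by role, with its standard error as a bar; red points were called higher, blue points lower and grey points not called at an adjusted p-value under 0.05. Prim1 stands farthest to the right at 1.09, and each role holds both coloured and grey points.

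The summed level of the 42 genes was 1533, 1597 and 1508 CPM in WT libraries against 1635, 1608 and 1568 CPM in knockout libraries, so WT replicate 2 lay inside the knockout range. The most abundant transcripts of the list did not pass the test. Pcna, the sliding clamp, had 185 to 215 CPM in WT libraries against 192 to 193 CPM in knockout libraries, a log2 difference of -0.033 (SE 0.058). Of the Pcna 31-mers, 38% also occur in other annotated genes, chiefly Pcna-ps2, so its level is uncertain. Rrm1, the large subunit of ribonucleotide reductase, had 181 to 188 CPM in WT libraries against 174 to 190 CPM in knockout libraries, a log2 difference of 0.0032 (SE 0.052). The genes called higher had a median level of 16.2 CPM over the 6 libraries, those called lower 42.8 CPM and those not called 22.5 CPM. Per kilobase of the longest coding transcript, Pcna was the highest of the 42 genes in WT at 130 CPM per kilobase and E2f2 the lowest at 0.412. Because these are bulk libraries, a change in the share of cycling cells and a change in RNA per cell cannot be told apart.

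**Figure D2:**
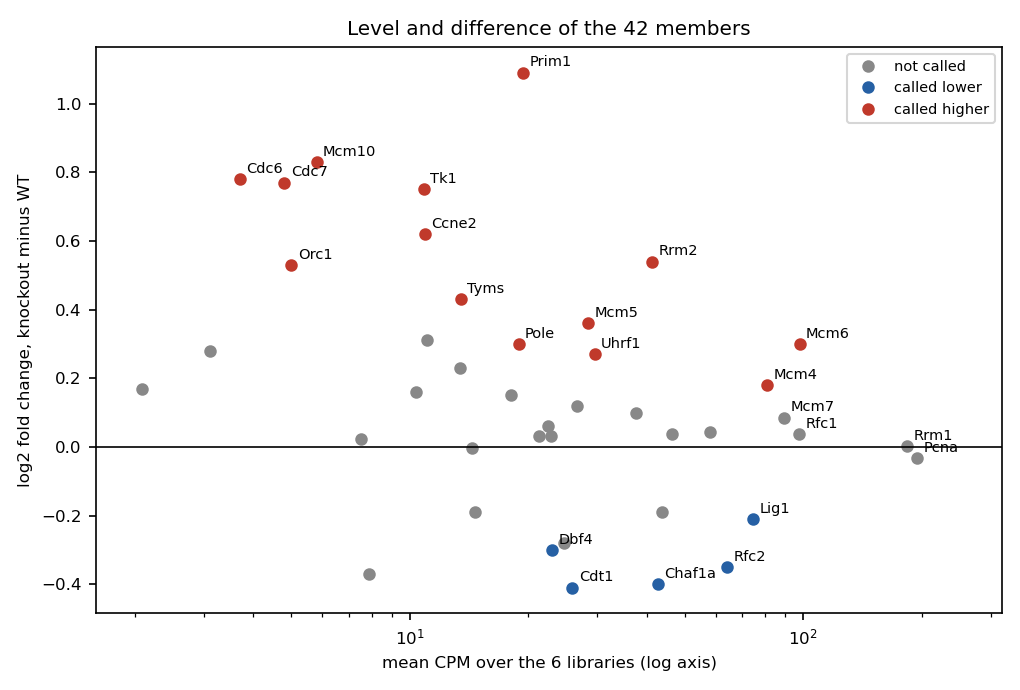
Mean CPM over the 6 libraries (horizontal, log axis) against the log2 fold change, knockout minus WT (vertical), for the 42 genes, coloured by call. The rises of more than 0.5 on the log2 scale lie among genes under 50 CPM, and Pcna (-0.033) and Rrm1 (0.0032) lie farthest to the right.

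Origin recognition and licensing genes changed in opposite directions. Orc1, the largest subunit of the origin recognition complex, had 4.93, 3.26 and 3.95 CPM in WT libraries against 5.29, 6.18 and 6.44 CPM in knockout libraries. Cdc6, which joins the complex to load MCM, had 2.86, 1.94 and 3.3 CPM in WT libraries against 4.55, 4.51 and 5.1 CPM in knockout libraries. Neither gene overlapped between the groups, and the lowest value of each was that of WT replicate 2. The log2 difference was 0.53 (SE 0.17, edgeR adjusted p-value 0.0373) for Orc1 and 0.78 (SE 0.20, edgeR adjusted p-value 0.0107) for Cdc6. Cdt1, the other loading factor, fell from 29.6, 32.6 and 26.6 CPM in WT to 22.3, 22.6 and 21.8 CPM in knockout libraries. Its log2 difference was -0.41 (SE 0.085, edgeR adjusted p-value 0.0035), and the groups did not overlap. Orc6, another origin recognition subunit, was not called, at 0.12 (SE 0.085). The call of Cdc6 was lost without knockout replicate 3 (0.72, edgeR adjusted p-value 0.057). That of Orc1 was lost without WT replicate 2 or 3 or knockout replicate 2 or 3 (0.42 to 0.51, edgeR adjusted p-values 0.0707 to 0.145), and Orc6 was called without WT replicate 2 (0.20, edgeR adjusted p-value 0.0461).

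The promoters of these genes were searched for E2F letters. The genes were chosen by function, and E2F factors drive genes of this programme, so frequent matches would follow from that choice. The promoter windows used for comparison were not matched for base content. E2F factors bind sites of the form TTTCCCGC, TTTGGCGC, TTTCGCGC or TTTGCCGC. These letters were searched on both strands, overlapping matches included, in RefSeq windows from 250 bases before to 50 bases after the start site (GRCm38.p6). Windows were found for 34 of the 42 genes, 41 windows in all. A match was present in 34.1% of these windows, beside 2.26% of all 32851 promoter windows, and the CCAAT box, the site of the factor NF-Y, in 56.1% beside 37.4%. By gene, 5 of 11 genes called higher, 2 of 4 called lower and 7 of 19 not called had an E2F match, so a match was found in each class. The windows of the 3 licensing genes that changed are shown because they carry matches while the genes moved in opposite directions. Orc1 lies at chr4:108579204-108579503 (plus strand), Cdc6 at chr11:98907901-98908200 (plus strand) and Cdt1 at chr8:122567765-122568064 (plus strand). Sequences run 5′ to 3′ on the gene's strand, and capitals mark the E2F letters on either strand.
Orc1: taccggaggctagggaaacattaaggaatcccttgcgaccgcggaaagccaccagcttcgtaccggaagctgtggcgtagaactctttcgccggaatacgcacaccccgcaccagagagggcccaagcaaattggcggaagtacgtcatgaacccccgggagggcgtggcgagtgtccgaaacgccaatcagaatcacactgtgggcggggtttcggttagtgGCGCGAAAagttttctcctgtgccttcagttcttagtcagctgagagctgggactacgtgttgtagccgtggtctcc
Cdc6: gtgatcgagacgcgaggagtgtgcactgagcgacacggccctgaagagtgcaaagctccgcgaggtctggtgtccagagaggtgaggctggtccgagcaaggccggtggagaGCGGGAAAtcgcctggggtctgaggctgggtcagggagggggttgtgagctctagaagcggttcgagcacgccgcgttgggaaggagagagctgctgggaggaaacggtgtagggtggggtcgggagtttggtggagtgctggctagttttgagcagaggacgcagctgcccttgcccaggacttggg
Cdt1: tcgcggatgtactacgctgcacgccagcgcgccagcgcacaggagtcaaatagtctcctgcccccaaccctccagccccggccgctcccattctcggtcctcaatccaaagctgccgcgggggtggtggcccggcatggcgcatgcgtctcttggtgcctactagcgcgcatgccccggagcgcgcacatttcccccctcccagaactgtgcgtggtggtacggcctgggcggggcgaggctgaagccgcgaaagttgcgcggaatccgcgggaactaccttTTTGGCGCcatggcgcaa
The match in Orc1 begins at position -27 and that in Cdc6 at position -138 from the start site, and that in Cdt1 at position 33 after it. A match describes letters in the window and was not tested as a binding site.

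Of the 6 genes of the MCM helicase, the ring that unwinds DNA, 3 were called higher and 0 lower, beside 12.7% and 14.2% of all tested genes. Mcm6 had 87.1, 91.6 and 84.4 CPM in WT libraries against 111, 112 and 102 CPM in knockout libraries. Mcm5 had 26.3, 25.3 and 22.8 CPM in WT libraries against 33.8, 33.2 and 28.9 CPM in knockout libraries. Mcm4 had 73.2, 78.5 and 75.9 CPM in WT libraries against 83.1, 89.1 and 85.6 CPM in knockout libraries. Every knockout library lay above every WT library for 5 of the 6 genes, these 3 and also Mcm2 and Mcm3, beside 21.3% of all tested genes. The log2 differences were 0.30 (SE 0.059, edgeR adjusted p-value 0.00234) for Mcm6 and 0.36 (SE 0.087, edgeR adjusted p-value 0.00878) for Mcm5. For Mcm4 it was 0.18 (SE 0.056, edgeR adjusted p-value 0.0311), and this call was lost when any library other than WT replicate 2 was left out (0.16 to 0.20, edgeR adjusted p-values 0.0593 to 0.128). Mcm2, Mcm3 and Mcm7 had log2 differences of 0.10, 0.044 and 0.085 and were not called. Of the 31-mers of the Mcm7 transcript, 47.6% also occur in another annotated gene, chiefly Gm5487, so its counts are uncertain. The promoter windows of Mcm5, at chr8:75109259-75109558 (plus strand), and Mcm6, at chr1:128359656-128359955 (minus strand), are shown because E2F matches overlap there in opposite orientations.
Mcm5: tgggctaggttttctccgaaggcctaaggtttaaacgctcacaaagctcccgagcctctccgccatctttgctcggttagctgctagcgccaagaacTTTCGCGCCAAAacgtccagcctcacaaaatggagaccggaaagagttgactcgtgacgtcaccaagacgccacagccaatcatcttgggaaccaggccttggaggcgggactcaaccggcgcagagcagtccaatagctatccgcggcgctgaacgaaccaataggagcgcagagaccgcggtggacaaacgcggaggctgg
Mcm6: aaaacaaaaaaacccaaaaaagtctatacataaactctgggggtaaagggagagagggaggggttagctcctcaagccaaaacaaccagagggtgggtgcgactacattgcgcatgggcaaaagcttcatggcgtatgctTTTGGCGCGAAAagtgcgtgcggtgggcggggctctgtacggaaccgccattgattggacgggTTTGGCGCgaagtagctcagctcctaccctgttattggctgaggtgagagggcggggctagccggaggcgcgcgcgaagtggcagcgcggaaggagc
Mcm5 had 2 matches and Mcm6 had 3. Mcm3 also had 2, as did a window of Mcm7, and neither gene was called.

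Genes that switch the helicase on were split. Mcm10, which acts at the step when the helicase starts to unwind, had 4.11, 3.88 and 4.43 CPM in WT libraries against 8.3, 7.58 and 6.51 CPM in knockout libraries. Its log2 difference of 0.83 (SE 0.15, edgeR adjusted p-value 0.00125) was the second largest of the list. Cdc7, the kinase that phosphorylates MCM, had 3.54, 3.19 and 4 CPM in WT libraries against 4.73, 5.74 and 7.65 CPM in knockout libraries, with knockout replicate 3 highest. Its log2 difference was 0.77 (SE 0.19, edgeR adjusted p-value 0.0104), or 0.55 without knockout replicate 3, where the call was lost (edgeR adjusted p-value 0.0778). Dbf4, the subunit that activates Cdc7, went the other way. It had 24.4, 26.2 and 25.8 CPM in WT libraries against 19.6, 20.8 and 21.3 CPM in knockout libraries, a log2 difference of -0.30 (SE 0.077, edgeR adjusted p-value 0.0112). Without knockout replicate 1 it was -0.27 (edgeR adjusted p-value 0.0506), just outside the threshold.

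None of the GINS subunits, which bridge helicase and polymerase, was called. Gins1, Gins2 and Gins4 had log2 differences of -0.37, -0.28 and -0.19, with adjusted p-values of 0.0558, 0.0674 and 0.0813 by edgeR, and their groups did not overlap. Each of the 3 was called lower without WT replicate 3, at -0.45, -0.36 and -0.25, with adjusted p-values of 0.0393, 0.0303 and 0.0259 by edgeR. Exons of Gse1 on the opposite strand cover 67.3% of the exon bases of Gins2, and it is not stated whether counting used strand, so the Gins2 level is uncertain. Gins3 had a log2 difference of 0.28 (SE 0.20) at under 4 CPM in every library, and Cdc45, which completes the active helicase, one of 0.16 (SE 0.12).

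Of the 6 clamp and clamp loader genes, Rfc2 alone was called (16.7%, beside 26.9% of all tested genes). The loader is a ring of 5 RFC subunits that opens PCNA and closes it around DNA. Rfc2 had 71.4, 75.3 and 68.7 CPM in WT libraries against 59.5, 55.6 and 54.1 CPM in knockout libraries, with no overlap. The log2 difference was -0.35 (SE 0.061, edgeR adjusted p-value 0.00109), and the knockout level was 78.5% of WT. The other 4 loader subunits had log2 differences from -0.19 for Rfc4 to 0.062 for Rfc3 and were not called. Of the Rfc2 31-mers, 22.9% also occur in other annotated genes, chiefly Lat2, so its level is uncertain, as is that of Rfc5 with 33%. Exons of Lat2 on the opposite strand cover 15.1% of those of Rfc2, and Lat2 itself had 9.56 CPM in WT libraries against 9.8 CPM in knockout libraries.

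Among polymerase and primase genes, Prim1 had the largest rise of the 42 and its partner Prim2 was not called. Prim1 encodes the subunit of primase that makes the RNA primers. It had 11.6, 13.3 and 12.5 CPM in WT libraries against 28.6, 25.6 and 25.2 CPM in knockout libraries, so the lowest knockout library was far above the highest WT library. The knockout level was 212% of WT, a log2 difference of 1.09 (SE 0.09, edgeR adjusted p-value 3.13e-06). Prim2, the regulatory subunit, had 20.7 to 24.8 CPM in WT libraries against 22.1 to 24.3 CPM in knockout libraries, a log2 difference of 0.032 (SE 0.086). No exon of Prim1 overlaps another annotated gene on the opposite strand, and 0% of its 31-mers occur elsewhere. Its promoter window, at chr10:128014965-128015264 (plus strand), is shown because the gene with the largest rise had no exact match to the E2F letters and 1 CCAAT box. The window does hold gttcccgc, which differs from TTTCCCGC at the first letter only. The lack of an exact match therefore does not show that Prim1 lacks an E2F site.
Prim1: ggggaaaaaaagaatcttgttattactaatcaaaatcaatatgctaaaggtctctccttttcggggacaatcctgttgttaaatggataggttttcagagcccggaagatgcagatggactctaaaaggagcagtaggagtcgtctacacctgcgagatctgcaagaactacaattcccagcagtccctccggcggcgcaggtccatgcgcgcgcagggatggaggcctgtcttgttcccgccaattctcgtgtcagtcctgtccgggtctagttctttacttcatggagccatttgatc
Pole, the leading strand polymerase, had 15.7, 17.7 and 17.5 CPM in WT libraries against 21.6, 22.2 and 18.8 CPM in knockout libraries. Its log2 difference of 0.30 (SE 0.093, edgeR adjusted p-value 0.0305) was no longer called without WT replicate 1 or knockout replicate 1 or 2 (0.25 to 0.27, edgeR adjusted p-values 0.103 to 0.134). The catalytic subunits Pola1 and Pold1 had log2 differences of 0.037 and 0.033, with overlapping groups.

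Of the genes that finish lagging strand fragments, Lig1 fell and Fen1 was not called. Lig1, the ligase that seals the fragments, had 79.8, 82.3 and 78.3 CPM in WT libraries against 73.1, 69.1 and 65.7 CPM in knockout libraries. The log2 difference was -0.21 (SE 0.059, edgeR adjusted p-value 0.0187). It was -0.21 to -0.17 and not called without WT replicate 1 or knockout replicate 2 or 3 (edgeR adjusted p-values 0.0579 to 0.109). The flap nuclease gene Fen1 had a log2 difference of 0.15 (SE 0.085). Exons on the opposite strand cover 84.2% of its exon bases, among them those of Tmem258. Tmem258 had 54.2 CPM in WT against 44.4 CPM in knockout libraries and was called lower, at -0.28 (edgeR adjusted p-value 0.00928). The level and difference of Fen1 are therefore uncertain.

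In nucleotide supply, 3 of 4 genes were called higher and 0 lower, beside 12.7% and 14.2% of all tested genes. This was the largest share of rises of any role, but on only 4 genes, and it includes Tyms, whose call was not stable. Rrm2, the small subunit of ribonucleotide reductase and the one that is made in S phase, had 34.7, 31.8 and 34.1 CPM in WT libraries against 52.6, 50 and 45.1 CPM in knockout libraries. Its log2 difference was 0.54 (SE 0.074, edgeR adjusted p-value 0.000153). Tk1, the thymidine salvage kinase, had 9.04, 7.23 and 7.84 CPM in WT libraries against 15.1, 13.6 and 12.5 CPM in knockout libraries, a log2 difference of 0.75 (SE 0.12, edgeR adjusted p-value 0.000553). Groups did not overlap for either gene. Tyms, the thymidylate synthase, had 9.57, 12.7 and 12.5 CPM in WT libraries against 15.4, 15.7 and 15 CPM in knockout libraries, a log2 difference of 0.43 (SE 0.11, edgeR adjusted p-value 0.0146). WT replicate 1 was low for Tyms, and without it the value was 0.29 (edgeR adjusted p-value 0.0749). The call was also lost without knockout replicate 2 (0.41, edgeR adjusted p-value 0.0548). Of the Tyms and Rrm2 31-mers, 21.5% and 16.5% occur in other annotated genes.

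Chromatin copying genes moved in opposite directions. Uhrf1, which reads hemimethylated DNA behind the fork, had 27.5, 26.7 and 25.8 CPM in WT libraries against 36, 30.8 and 30.4 CPM in knockout libraries, a log2 difference of 0.27 (SE 0.082, edgeR adjusted p-value 0.0263). Of its 31-mers, 29.4% also occur in other annotated genes, so its level is uncertain too. The call was lost without WT replicate 1 or 3 or knockout replicate 1 (0.20 to 0.30, edgeR adjusted p-values 0.0519 to 0.123). Chaf1a, the large subunit of the histone chaperone CAF-1, had 48.4, 52.5 and 45.4 CPM in WT libraries against 40.4, 34.5 and 35.8 CPM in knockout libraries. Its log2 difference was -0.40 (SE 0.078, edgeR adjusted p-value 0.00217). Exons of Ubxn6 on the opposite strand cover 52.5% of the exon bases of Chaf1a, and Ubxn6 was also called lower, at -0.20 (edgeR adjusted p-value 0.0326), so the Chaf1a level is uncertain if strand was not used. The second subunit, Chaf1b, had a log2 difference of 0.31 (SE 0.11, edgeR adjusted p-value 0.0581) and was called higher without WT replicate 2 (0.34, edgeR adjusted p-value 0.0378).

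Of the 4 G1/S regulators, Ccne2 alone was called (25%, beside 26.9% of all tested genes). Ccne2, an E cyclin that activates Cdk2 at the start of S phase, had 9.34, 7.3 and 8.97 CPM in WT libraries against 13.3, 13 and 13.6 CPM in knockout libraries. The log2 difference was 0.62 (SE 0.11, edgeR adjusted p-value 0.00124). Exons of Ints8 on the opposite strand cover 17.4% of the exon bases of Ccne2, and 18.6% of the Ccne2 31-mers occur in other annotated genes. Ints8 had 78.7 CPM in WT libraries against 74.1 CPM in knockout libraries and was not called, so the Ccne2 level is uncertain if strand was not used. Ccne1, the other E cyclin, had 6.25, 9.4 and 7.08 CPM in WT, with WT replicate 2 highest, and 7.44, 7.13 and 7.93 CPM in knockout libraries. The activating factors E2f1 and E2f2 had log2 differences of 0.23 (SE 0.13) and 0.17 (SE 0.22). E2f1 ranged from 9.79 to 14.8 CPM in WT and from 14.2 to 14.9 CPM in knockout libraries, and it was called higher without WT replicate 1 (0.41, edgeR adjusted p-value 0.036).

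**Figure D3:**
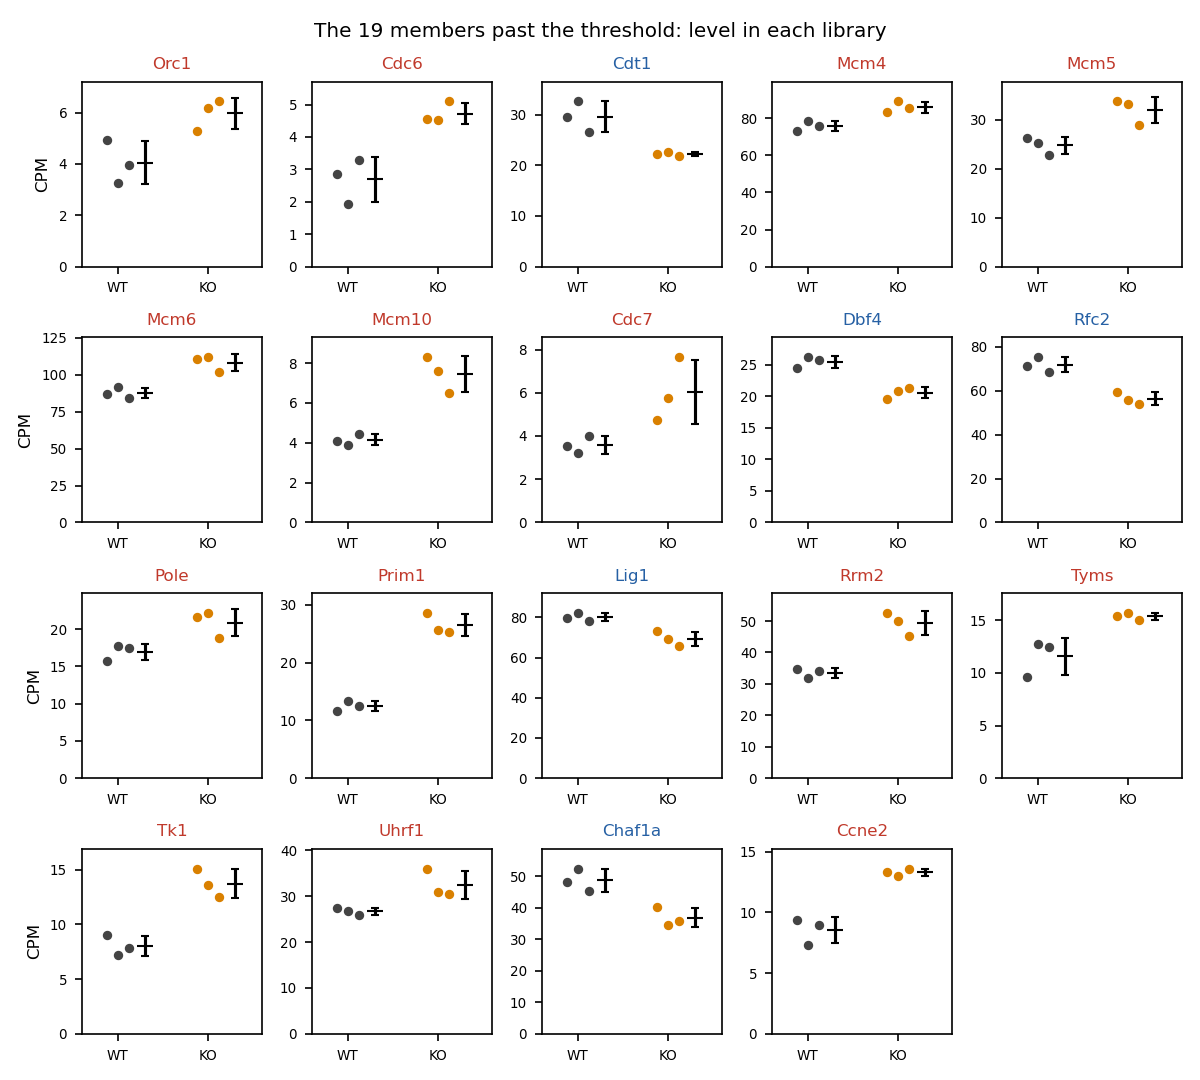
CPM in each library for the 19 genes called higher (red names) or lower (blue names); points are libraries, and the bar beside them is the mean with its SD (n = 3 per genotype), on axes that start at 0. In each of the 19 panels the WT and knockout points do not overlap.

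Groups did not overlap, with the knockout above WT, for 18 of the 42 genes, beside 21.3% of all tested genes. They did not overlap with the knockout below WT for 9 genes, beside 22.1% of all tested genes. A called difference of at least 1.5-fold was found for 6 of the 42 genes, all higher in the knockout, beside 7.9% of all tested genes in either direction.

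Partner genes of the same complex or step were then compared within each library, a comparison chosen after the values had been seen. In each of the 7 pairs the gene with the higher log2 difference was put over the other, so the direction was fixed by that choice and the ratios are a description with no test. Each ratio was taken within a library, so that its scaling cancels apart from the small prior count. Cdc7 over Dbf4 was -2.75, -3.00 and -2.66 in WT libraries against -2.02, -1.84 and -1.47 in those of the knockout, a rise of 1.03 in the mean log2 ratio. Prim1 over Prim2 was -0.94, -0.63 and -0.98 in WT libraries against 0.30, 0.071 and 0.19 in those of the knockout, a rise of 1.04. Rrm2 over Rrm1 rose by 0.55, Chaf1b over Chaf1a by 0.72, Cdc6 over Cdt1 by 1.22 and Ccne2 over Ccne1 by 0.64. The groups did not overlap in these 6 pairs. Orc1 over Orc6 overlapped between the groups, with a mean difference of 0.45.

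**Figure D4:**
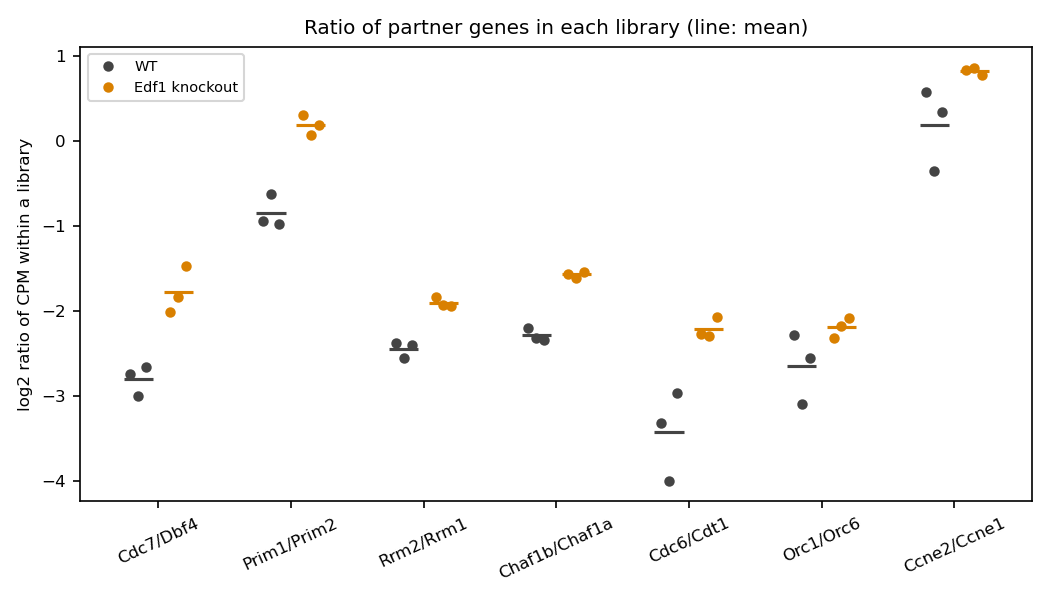
Log2 ratio of the CPM of partner genes within each library (vertical) for 7 pairs; grey points are the 3 WT libraries, orange points the 3 knockout libraries, and lines are means. Each pair has the gene with the higher log2 difference on top, and the Orc1/Orc6 points overlap.

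Further genes of the same pathway, from lists written for this comparison, were counted in the same way. The 54 other replication, nucleotide and chromatin genes had 12 called higher and 4 lower, 22.2% and 7.41%, beside 12.7% and 14.2% of all tested genes, with a median log2 difference of 0.036. None of the 14 other origin and helicase genes was called by edgeR. Of these, Orc3 and Gmnn, the inhibitor of Cdt1, had an unadjusted p-value under 0.05, at log2 differences of -0.13 and 0.19. Among 21 other fork genes, 5 rose and 2 fell (23.8% and 9.52%). Timeless, which protects paused forks, had 8.36, 8.16 and 8.27 CPM in WT libraries against 15.9, 14.5 and 15.8 CPM in knockout libraries, a log2 difference of 0.90 (SE 0.096, edgeR adjusted p-value 2.55e-05). Its partner Tipin had a log2 difference of -0.041 (SE 0.058) and was not called. Dscc1, of an alternative clamp loader, was at 0.75 on few reads (1.46 to 1.71 CPM in WT libraries, 2.51 to 2.79 CPM in knockout libraries). Rnaseh2c and Rpa1 were called lower, at -0.45 and -0.17.

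Among 11 other nucleotide genes 4 rose (36.4%), with Dck (0.49) the largest, and Dtymk fell (-0.31). Among 8 other chromatin genes 3 rose (37.5%), led by Tonsl (0.51) and Atad2 (0.40), and Asf1a fell (-0.17). The shares of all tested genes are again 12.7% higher and 14.2% lower.

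Of 14 other G1/S activators, 7 were called higher and 0 lower, beside 12.7% and 14.2% of all tested genes, with a median of 0.33. Cdk2, the kinase that pairs with cyclin E, had 22.6, 21.2 and 20.5 CPM in WT libraries against 34.8, 36.6 and 37.4 CPM in knockout libraries, a log2 difference of 0.76 (SE 0.074, edgeR adjusted p-value 1.23e-05). Ccnd1, cyclin D1, was at 0.75 and Ccna2, cyclin A2, at 0.68. The 7 calls also included Ccnd2, Ccnd3, Cdk4 and Cdk6, named because they complete the count. Of 17 G1/S brakes, 4 were called higher, 2 lower and 11 were not called, or 23.5% higher and 11.8% lower beside the same shares of all genes. Cdkn1c and Cdkn1a, which encode the Cdk inhibitors p57 and p21, were at 1.30 and 0.54, and Cdkn2b at 0.38. The Cdkn1c value rests on few reads, at 1.55 to 2.03 CPM in WT libraries against 3.79 to 4.86 CPM in knockout libraries. The inhibitor genes Cdkn1b, Cdkn2a, Cdkn2c and Cdkn2d were not called, at 0.039, 0.27, 0.095 and 0.27. The repressor gene E2f7 fell from 32, 28.4 and 28.3 CPM in WT to 18.8, 18.4 and 20.2 CPM in knockout libraries (-0.63), and E2f4 was at -0.21.

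The G2 and mitosis list was divided, with 7 of 30 genes called higher and 6 lower (23.3% and 20%, beside 12.7% and 14.2% of all tested genes), and a median of 0.11. Mki67, a general marker of cycling cells, had 57.5, 43.9 and 61.2 CPM in WT libraries against 112, 94.1 and 114 CPM in knockout libraries, a log2 difference of 0.97 (SE 0.11, edgeR adjusted p-value 3.12e-05). Top2a, the other such marker, went the other way, from 304, 279 and 295 CPM to 262, 246 and 246 CPM, a log2 difference of -0.22 (SE 0.05, edgeR adjusted p-value 0.00629). Birc5 was at 0.65, and Aurka and Cdc20, which act in mitosis, were at -0.58 and -0.52.

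**Figure D5:**
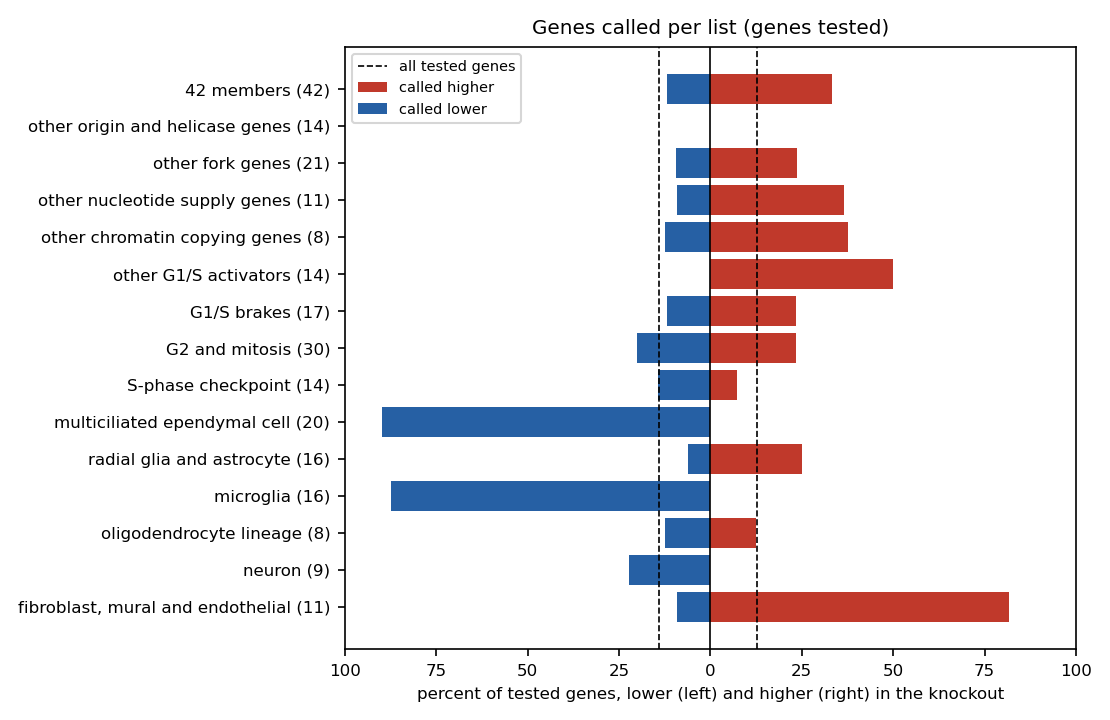
Percent of tested genes in each list called higher (red, right) or lower (blue, left) in the knockout, with the number tested in parentheses; dashed lines mark 12.7% higher and 14.2% lower over all tested genes. The 42 replication genes reach 33.3% on the right and 11.9% on the left.

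Marker genes of some other cell types also differed between the genotypes. The shares of all tested genes are 12.7% called higher and 14.2% called lower. Of 20 multiciliated ependymal genes, 18 were called lower (90%) and 0 higher. Their summed level was 2965 to 3100 CPM in WT libraries against 1716 to 1839 CPM in knockout libraries. Deup1 and Spag17 of this list were at -1.27 and -1.78. Of 16 radial glia and astrocyte genes, 4 were called higher and 1 lower (25% and 6.25%). Their summed level was 10376 to 10866 CPM in WT libraries against 11387 to 11819 CPM in knockout libraries. Most of this sum is Vim, which was not called, at 6019 to 6651 CPM in WT libraries against 6753 to 7012 CPM in knockout libraries. Microglial genes were lower for 14 of 16 (87.5%) and higher for 0, at 2618 to 2790 CPM in WT libraries against 1723 to 1784 CPM in knockout libraries. Fibroblast, mural and endothelial genes were higher for 9 and lower for 1 of 11 tested (81.8% and 9.09%). Their summed level was 894 to 948 CPM in WT libraries against 1176 to 1296 CPM in knockout libraries. Most of this sum is Acta2 and Tagln, both called higher, at log2 differences of 0.30 and 0.20. Acta2 had 459 to 496 CPM in WT against 564 to 608 CPM in knockout libraries, and Tagln 277 to 296 CPM against 320 to 350 CPM. The endothelial genes of that list did not go one way. Kdr had 34.4 to 39.9 CPM in WT libraries against 124 to 128 CPM in knockout libraries (1.73), and Flt1 had 10.7 to 12 CPM in WT libraries against 3.51 to 4.06 CPM in knockout libraries (-1.58). The other 3 were under the filter: Cdh5 had 2, 4 and 5 counts in WT libraries and 8, 26 and 13 in knockout libraries, Pecam1 had 2 to 5 counts in each library, and Cldn5 had 0 counts in 5 libraries and 1 in knockout replicate 3. The oligodendrocyte lineage list had 1 called higher and 1 lower of 8 tested, 12.5% each way and near the shares of all genes. It summed to 453 to 492 CPM in WT and 424 to 441 CPM in knockout libraries. Most of this sum is Cnp, the gene called lower, at 329 to 371 CPM in WT and 291 to 298 CPM in knockout libraries. The neuron list had 0 called higher and 2 lower of 9 tested (22.2% lower). It summed to 254 to 332 CPM in WT and 276 to 292 CPM in knockout libraries. Most of this sum is Map2, which was not called, at 210 to 288 CPM in WT and 233 to 250 CPM in knockout libraries. The part of these cell types in the levels of the replication genes was not tested.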

How the data were processed

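Raw whole-number counts by gene symbol were deposited by the authors, with 1 column for each of the 6 libraries. Per the submitters' processing notes, FastQC 0.11.2, cutadapt 1.11, HISAT2 2.1.0 and the build GRCm38 were used. The counting program, annotation, strand setting and treatment of reads that map to several places are not given in the sources used here. Libraries were made from TRIzol RNA with an MGIEasy kit for mRNA (per the labels' protocols).

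The counts were analysed in R 4.3.3. filterByExpr of edgeR 4.0.16 kept 14243 of 22851 genes, TMM factors ranged from 0.985 to 1.01, and edgeR's quasi-likelihood test compared the knockout with WT over all 6 libraries, with no covariate. Each standard error came from the fold change and its F statistic (|log2 fold change| over the root of F). Log2 ratios use CPM with a prior count of 2. The alternatives were DESeq2 size factors, library size alone, other filters (at least 1 count, or a mean of 50), DESeq2 1.42.0, limma 3.58.1 (voom), a replicate block, omission of each library in turn, a threshold of 0.01, and a correction for GC content and length by splines with 4 degrees of freedom (99% of tested genes matched). Coordinates, shared 31-mers and exon overlaps come from GENCODE M21 (GRCm38) and promoters from RefSeq.

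The members, lists, alternatives and motifs were chosen with earlier results of these data known, and the partner pairs after the values. All members may be named. From other lists at most 2 called rises and 2 called falls are named (3 each for G1/S lists, at a mean log2 CPM of at least 1), plus Mki67 and Top2a. Orc3, Gmnn, Tipin, Cldn5, Cdh5, Pecam1, Ccnd2, Ccnd3, Cdk4, Cdk6, Cdkn1b, Cdkn2a, Cdkn2c and Cdkn2d were named after their values were seen. So were Vim, Map2, Cnp, Acta2 and Tagln. A gene that this rule would name is not reported here. Scripts were tested on simulated data.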

Additional observations from a re-analysis of the deposited data

How the results depend on the processing

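At an adjusted p-value under 0.01 by edgeR, 6.78% of all tested genes were higher and 8.76% lower, in place of 12.7% and 14.2%. Of the 42 genes, 7 were then higher and 3 lower, in place of 14 and 5. These 10, Prim1, Mcm10, Tk1, Ccne2, Rrm2, Mcm5, Mcm6, Cdt1, Chaf1a and Rfc2, kept their call and direction in all 15 alternatives. The 0.01 threshold is itself 1 of the 15, so these genes passed it by definition. None of the 19 called genes changed direction in any alternative. The 6 fits that each left out a library called 8.36% to 14.4% of all tested genes higher and 9.97% to 15.7% lower. For the 42 genes they gave 10 to 15 higher, 4 to 8 lower and a median log2 fold change of 0.098 to 0.12. The median was 0.12 with library size alone and 0.15 after the GC and length correction. The SD between replicates of the median over the 42 genes was 0.012, with each gene centred on its mean of all 6 libraries. Centred on the WT mean, library medians ran from -0.022 to 0.038 in WT and from 0.1 to 0.13 in knockout libraries. The spread thus depends on the centring, and the cause of the shifts was not tested. The GC and length correction ended the call of Pole (0.22, adjusted p-value 0.0767 by edgeR) and added Orc6, Gins2 and Chaf1b. Gins2 was also called with no filter beyond 1 count.

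The direction of 9 genes that were not called was not stable. After the GC and length correction Pcna was at 0.066, Pola1 at -0.048, Pold1 at -0.014, Rfc5 at 0.04 and Rrm1 at -0.017. Rfc5 was at 0.0092 with library size alone and at 0.0011 with a mean of 50 counts. With each library left out in turn, Ccne1 ran from -0.11 to 0.18, Pcna from -0.074 to 0.03, Pola1 from -0.029 to 0.098 and Pold1 from -0.04 to 0.09. Prim2 ran from -0.02 to 0.1, Rfc1 from -0.008 to 0.076, Rfc3 from -0.0073 to 0.14, Rfc5 from -0.043 to 0.06 and Rrm1 from -0.022 to 0.046. The cause was not tested.

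With the replicate number as a block, 15 genes were higher and 7 lower, with Gins1, Gins2 and Chaf1b added and none lost. Of all tested genes, 13.8% were higher and 14.8% lower in that fit. Deviations of same-numbered libraries from their genotype's mean correlated at 0.0693, 0.0604 and 0.0372, so no pairing was assumed. Genes under about 5 CPM, such as Cdc6 with 25 counts in WT replicate 2, rest on few reads.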

Other observations

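S-phase checkpoint genes, which slow replication when forks stall, were called at shares near or below those of all genes. Of 14 genes, 1 was called higher and 2 lower by edgeR (7.14% and 14.3%, beside 12.7% and 14.2% of all tested genes), with a median log2 difference of -0.015. Chek1, the effector kinase, had 6.48, 6.45 and 7.08 CPM in WT libraries against 9.34, 8.69 and 8.36 CPM in knockout libraries, a log2 difference of 0.39. Atr, the kinase that activates Chek1, fell from 135, 121 and 138 CPM to 101, 91.7 and 110 CPM, a log2 difference of -0.38. Wee1, which holds back Cdk1, fell from 56.9, 52.6 and 54.4 CPM to 43.1, 43.5 and 40.7 CPM, a log2 difference of -0.37. The groups did not overlap for any of the 3 genes.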
